A study of Homo sapiens with 6 samples.

Results

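IL24 and the genes of its cytokine family were examined in CAL-27 cells with and without an shRNA against XBP-1s. The set held 10 genes of the 19740 that the array named: the ligands IL24, IL20, IL19 and IL10, the receptor chains IL20RA, IL20RB, IL22RA1 and IL10RB, the signal transducer STAT3 and its inhibitor SOCS3. The set was selected on the log2 fold change of IL24 in shXBP-1s against shCtrl on these arrays, and the other members were added as its family and epithelial receptor pathway. The values of the members, and whether each passed the calling threshold of the fit over all probes, are therefore given as a description and not as a test. They were measured by 12 probes of 34127. IL24 and STAT3 had 2 probes each and the other 8 genes had 1. All 12 probes were well above background on the 3 arrays of at least 1 group and entered the fit, and 10 of them were well above background on all 6 arrays.

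CAL-27 is a line from a squamous carcinoma of the tongue. The shXBP-1s group (n = 3) carried, by stable transduction, an shRNA directed at XBP-1s, the spliced and active form of a transcription factor of the unfolded protein response, and the shCtrl group (n = 3) carried a negative control. The labels name no second shRNA, no clone, and no further treatment of either group, and they do not say whether replicates were separate cultures, so any p measures the spread between these samples, which may be technical. Total RNA from each sample was labelled with Cy3 and measured on a 1-colour Agilent array of the whole human genome, and the comparison asked which mRNAs differed when XBP-1s was depleted.

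IL-19, IL-20 and IL-24 are secreted cytokines that signal from immune and epithelial cells to keratinocytes. Each binds the receptor pair IL20RA and IL20RB, and IL-20 and IL-24 also bind the pair IL22RA1 and IL20RB. IL-10, the founding member of the family, restrains inflammation, and IL10RB is the chain it shares with IL-22. These receptors act through JAK kinases and STAT3, which switches on SOCS3 as a brake on the same pathway. In skin the IL-20 family is known for driving the keratins, antimicrobial proteins and chemokines of an activated epidermis.

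XBP1, the target of the shRNA, gave mean signals of 2536, 2743 and 2766 on shCtrl arrays 1 to 3 and of 695, 617 and 551 on shXBP-1s arrays 1 to 3. This was 2.39 lower on the log2 scale (SE 0.04). The probe sequence was not analysed here, so spliced and unspliced XBP1 mRNA cannot be told apart. Between 82.1% and 84.8% of the spots on an array were well above background, and 0 spots were saturated. Levels are given on the log2 scale after subtraction of the array's own 75th percentile, a signal of 687 to 761 for shCtrl and 792 to 983 for shXBP-1s. Correlations of log2 levels were 0.993 to 0.998 within groups and 0.981 to 0.986 between groups. All 7 markers of squamous epithelium were well above background on every array. Their summed signal, unscaled and mostly that of SFN, CDH1 and EPCAM, was 73925 to 79207 in shCtrl and 123742 to 129317 in shXBP-1s. After scaling, SFN was 0.71 higher in shXBP-1s on the log2 scale, CDH1 0.13 and EPCAM 0.01, none past the calling threshold. KRT5, KRT14 and DSG3, given below, were called higher. Most defining markers of other cell types were also well above background on every array. These were 3 of 4 for T cells, 3 of 4 for myeloid cells and 3 of 3 for B cells. They were 4 of 4 for fibroblasts, 3 of 3 for endothelium and 2 of 3 for melanocytes. Being well above background therefore did not separate cell types here. TYR of melanocytes was above background on no array, CD3G of T cells on 1 and CD163 of myeloid cells on 5. CD79A (6165 to 10538) and CD14 (1999 to 4356) were bright. CSF1R (1.04) and LUM (1.94) were called higher and PDGFRB (-1.28) lower on the log2 scale, and their part in the results was not tested. Array shCtrl 1 shared its slide with the 3 shXBP-1s arrays, and shCtrl 2 and 3 were on the other slide, so every value with the slide taken into account rests on shCtrl 1 alone.

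IL24 differed most of all members, and was higher in shXBP-1s. Its brighter probe, A_33_P3232692, read 54.5, 52.2 and 53.3 on the shCtrl arrays and 1359, 1303 and 1294 on the shXBP-1s arrays. Every shXBP-1s array was far above every shCtrl array, and arrays of a group differed little. After this scaling the log2 level went from -3.78 ± 0.11 (SD, n = 3) to 0.57 ± 0.12 (SD, n = 3), a difference of 4.35 (SE 0.08) or 20.5-fold. In the order of all 27624 tested probes by log2 fold change, this probe was number 8 from the top.

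The dimmer IL24 probe, A_33_P3290780, read 19.2, 21.6 and 21.9 in shCtrl and 335, 282 and 260.0 in shXBP-1s. These groups did not overlap either, and the probe was number 14 in the same order. Its log2 level went from -5.14 ± 0.03 to -1.61 ± 0.06 (SD, n = 3), a difference of 3.53 (SE 0.07) or 11.5-fold. Normexp, an alternative background correction, was run with an offset of 50 added to each signal. Under it the difference was 1.31 (SE 0.32) with the 75th percentile and 1.79 (SE 0.04) with quantile normalization. The probes differed in the size of the rise. On the same array the brighter probe exceeded the dimmer by 1.35 ± 0.13 on the log2 scale in shCtrl and by 2.18 ± 0.15 in shXBP-1s (SD, n = 3), a shift of 0.83. Both probes carry the same transcript accession, and their positions in it were not analysed here.

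IL20, a ligand of the same receptors whose gene lies beside IL24, was also higher. Its probe read 21.5, 22.9 and 16.9 in shCtrl and 195, 183 and 174 in shXBP-1s. All shXBP-1s arrays lay above all shCtrl arrays. The log2 level went from -5.18 ± 0.26 to -2.27 ± 0.08 (SD, n = 3), a difference of 2.91 (SE 0.13) or 7.52-fold. Under normexp it was 1.26 (SE 0.06) with quantile normalization and 0.70 (SE 0.43), not past the calling threshold, with the 75th percentile. By the brighter IL24 probe, the mean of IL24 minus IL20 was 1.44 larger in shXBP-1s than in shCtrl on the log2 scale. The dimmer IL24 probe rose by 3.53, nearer to the 2.91 of IL20, so the size of this inequality depended on the probe.

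IL19 and IL10, the remaining ligands, were not higher. IL19, the third ligand of the IL20RA and IL20RB pair, read 8.92, 15.9 and 14.7 in shCtrl and 11.99, 10.5 and 4.14 in shXBP-1s. It was near background throughout, and 2 of the 3 shXBP-1s arrays passed the background criterion. Its log2 level was -5.84 ± 0.37 in shCtrl and -6.78 ± 0.69 in shXBP-1s (SD, n = 3), the widest spread of any member, and the difference was -0.94 (SE 0.36). It was not called with all arrays and was called lower without shCtrl 1 (-1.15). IL10 was dim too. Its mean signals over up to 10 spots were 10.5, 11.7 and 14.6 in shCtrl and 14.2, 15.3 and 11.6 in shXBP-1s. The groups overlapped, and the log2 difference was -0.15 (SE 0.19). In shCtrl 27 of 30 IL10 spots were well above background and in shXBP-1s 26 of 30, with a coefficient of variation among spots of an array between 14.9% and 46.9%.

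**Figure D1:**
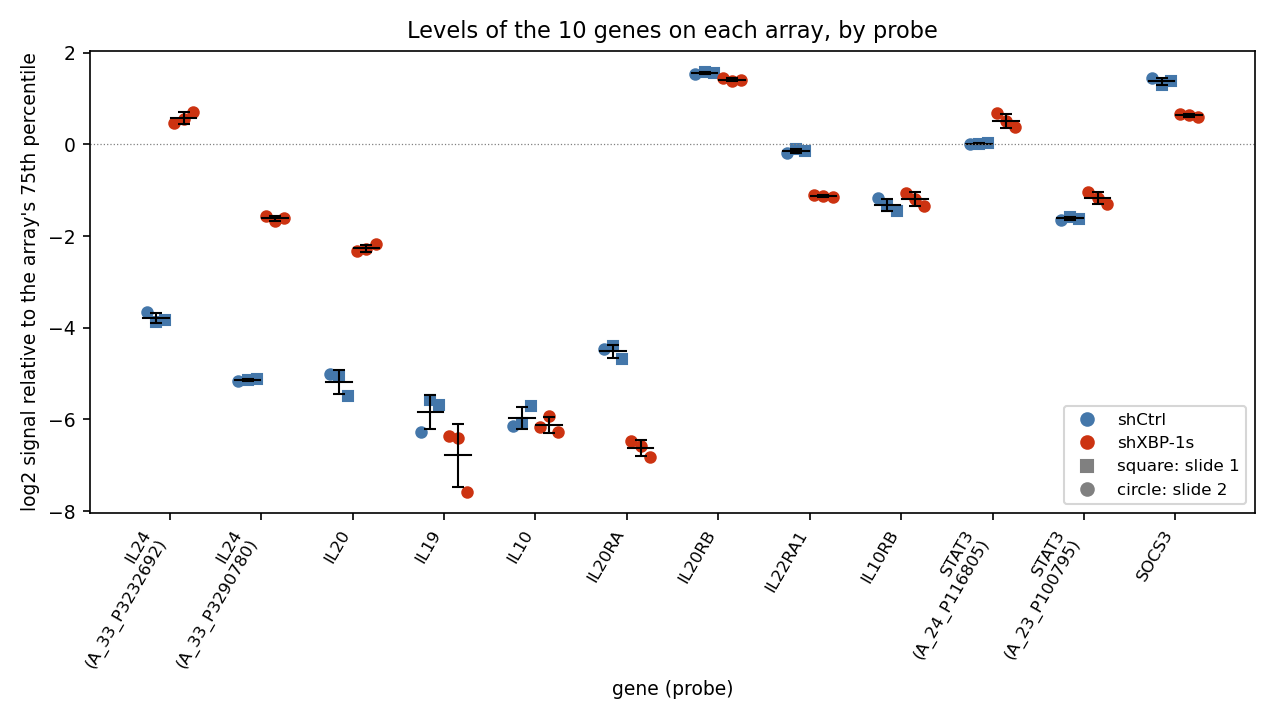
Log2 level of each of the 12 member probes (signal minus the 75th percentile of its array) on each of the 6 arrays, with 1 point per array (shCtrl blue, shXBP-1s red, squares for slide 1 and circles for slide 2) and the mean ± SD of each group (n = 3). Both IL24 probes and IL20 stand apart upward and IL20RA stands apart downward, while the groups of IL10 and IL10RB overlap. Levels may be compared within a probe and not between probes.

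The receptor chain IL20RA differed in the opposite direction. Its signal was 31.2, 35.9 and 29.6 in shCtrl and 11.1, 9.38 and 7.04 in shXBP-1s. All shXBP-1s arrays were below all shCtrl arrays, and the background criterion was still met on 2 of 3 shXBP-1s arrays, so the probe entered the fit through shCtrl. The log2 level was -4.51 ± 0.14 in shCtrl and -6.62 ± 0.17 in shXBP-1s (SD, n = 3), a difference of -2.11 (SE 0.15), or 4.31-fold lower. IL20RA was past the calling threshold only in analyses without normexp, under which it differed by -1.28 (SE 0.80) with the 75th percentile and by -0.45 (SE 0.03) with quantile normalization.

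IL22RA1, the chain that completes the alternative receptor of IL-20 and IL-24, read 607, 706 and 681 in shCtrl and 460.3, 410.2 and 357 in shXBP-1s. The groups did not overlap. The log2 difference was -0.98 (SE 0.05), or 1.97-fold lower, just short of the 2-fold minimum for a call. On the same arrays IL22RA1 minus IL20RA was 1.13 larger in shXBP-1s on the log2 scale. That order was not kept under normexp with quantile normalization, where IL22RA1 differed by -0.83 and IL20RA, which is near background, by -0.45.

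IL20RB, common to both of these receptors, was bright in every sample. Relative to its array, its log2 level was 1.55 ± 0.03 in shCtrl and 1.41 ± 0.04 in shXBP-1s (SD, n = 3). The groups did not overlap on this scale and differed by -0.14 (SE 0.04). The unscaled signals did overlap, at 1978, 2282 and 2220.3 in shCtrl and 2703, 2338 and 2085 in shXBP-1s. IL10RB read 304, 302 and 278 in shCtrl and 474, 394 and 311 in shXBP-1s. After scaling its groups overlapped, with a log2 difference of 0.12 (SE 0.09).

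STAT3, the transcription factor downstream of these receptors, was measured by 2 probes with like differences. The brighter probe read 693, 764 and 773 in shCtrl and 1571, 1267 and 1024 in shXBP-1s, and its log2 difference was 0.50 (SE 0.08). The probe spotted 10 times on each array read 221, 255 and 246 against 476, 398 and 319, with a log2 difference of 0.44 (SE 0.07). Both sets of arrays stood apart after scaling, and the gap between the probes shifted by only 0.06. SOCS3, the feedback inhibitor of the pathway, read 1873, 1865 and 1968 in shCtrl and 1559, 1399 and 1202 in shXBP-1s. It did not overlap between groups and was 0.74 lower on the log2 scale (a difference of -0.74, SE 0.05).

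Counted by gene, with the brightest probe for each, 2 of the 10 members were called higher (IL24 and IL20), 1 was called lower (IL20RA) and 7 were not called. A call required at least 2-fold together with an adjusted p below 0.05 in limma. Among all 16821 tested genes 5.18% were called, 2.3% higher and 2.88% lower. By probe, 10 of the 12 did not overlap between groups, 5 higher and 5 lower in shXBP-1s, where 52.4% of all tested probes did not overlap (23.9% higher and 28.5% lower). The median log2 fold change of the members was -0.14 and that of all genes -0.04. Since the members were picked with this contrast known, nothing is read from these shares.

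**Figure D2:**
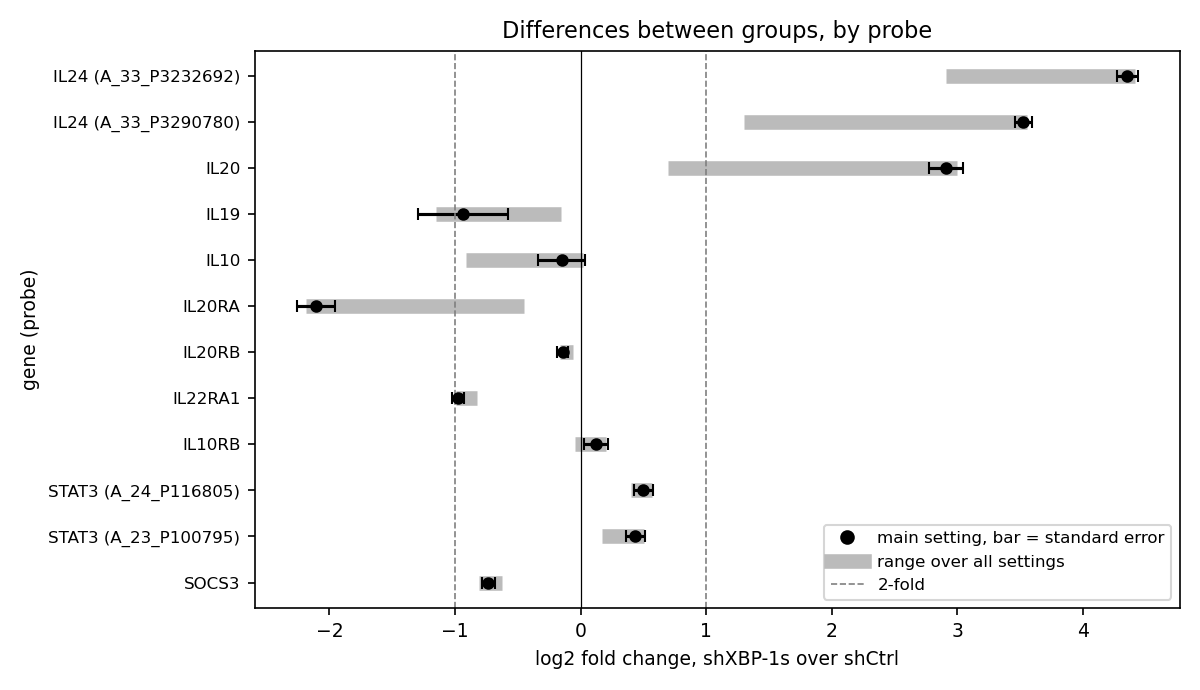
Log2 fold change of each member probe, shXBP-1s minus shCtrl, with its standard error (n = 3 per group) and the range over the alternative analyses. IL24 (4.35 and 3.53), IL20 (2.91) and IL20RA (-2.11) lie beyond the 2-fold lines, IL22RA1 (-0.98) and IL19 (-0.94) lie close to the line, and the rest lie nearer to 0.

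IL10, IL19, IL20 and IL24 lie next to each other on chromosome 1, so the genes around them were also read. Of the 10 protein-coding genes on each side, 19 were tested. CD55, which shields cells from complement, rose by 1.58 on the log2 scale (SE 0.05, adjusted p = 1.52e-06 in limma with Benjamini-Hochberg adjustment). C1orf116 rose by 1.24 (SE 0.08, adjusted p = 1.17e-05), a call that was lost under the normexp background correction (0.67 and 0.90). PIGR, the receptor that carries polymeric antibodies across epithelia, fell by 1.88 (SE 0.07, adjusted p = 2.36e-06). PIGR signals were 320, 375 and 331 in shCtrl and 133, 114 and 92.6 in shXBP-1s. The other 16 were not called, and the median of the 19 was -0.07, where that of all genes was -0.04. The called share was 15.8%, against 5.18% of all genes, and whether position had a part in it was not tested. FCMR, the gene next to IL24, differed by 0.29 (SE 0.11), and MAPKAPK2, next to IL10, by 0.16 (SE 0.07), and neither passed the test. These flanking genes were named for their position after their values had been seen. C4BPB was not well above background.

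**Figure D3:**
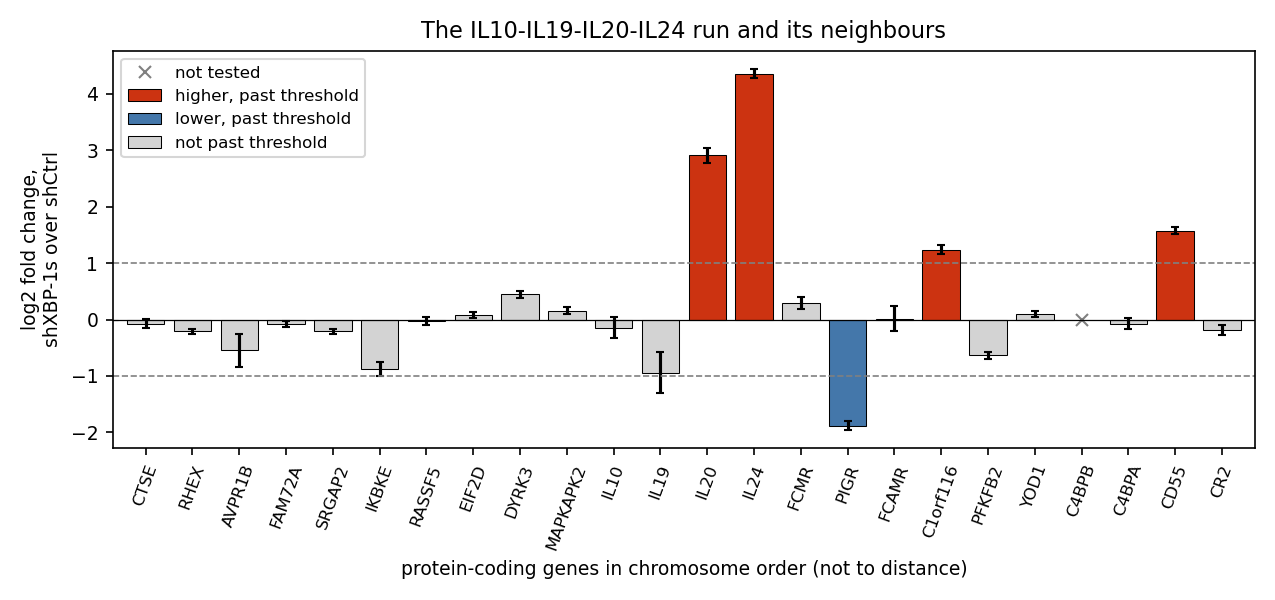
Log2 fold change, shXBP-1s minus shCtrl, with standard error (n = 3 per group), of IL10, IL19, IL20 and IL24 and of the 10 protein-coding genes on each side, in gene order and not to scale of distance. IL20 (2.91) and IL24 (4.35) are the tallest, between IL19 (-0.94) and FCMR (0.29), and PIGR (-1.88), C1orf116 (1.24) and CD55 (1.58) pass the call threshold further along.

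The promoter windows of the 3 member genes past the call threshold are shown so that the start regions of the ligands that were higher and of the receptor that was lower can be read side by side. They are RefSeq sequences of GRCh38.p14, from 250 bases before the start site to 50 after it, on the strand of the gene. Capitals mark matches to the TATA-like word TATANA on either strand. IL24 had 1 window, and for IL20 and IL20RA the first of 2 is shown.
IL24 (chr1:206897193-206897492, plus strand): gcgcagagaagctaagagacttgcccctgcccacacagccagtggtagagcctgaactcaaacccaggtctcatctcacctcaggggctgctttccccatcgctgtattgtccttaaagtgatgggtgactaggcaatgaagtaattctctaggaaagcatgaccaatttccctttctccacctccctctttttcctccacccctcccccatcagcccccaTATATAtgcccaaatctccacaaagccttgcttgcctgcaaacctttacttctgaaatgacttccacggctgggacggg
IL20 (chr1:206863315-206863614, plus strand): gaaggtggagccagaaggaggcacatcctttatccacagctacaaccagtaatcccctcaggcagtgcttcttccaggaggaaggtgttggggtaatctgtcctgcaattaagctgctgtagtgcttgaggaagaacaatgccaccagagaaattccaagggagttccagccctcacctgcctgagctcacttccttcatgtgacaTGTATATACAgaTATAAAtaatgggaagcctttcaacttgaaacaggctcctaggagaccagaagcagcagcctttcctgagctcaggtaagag
IL20RA (chr6:137044916-137045215, minus strand): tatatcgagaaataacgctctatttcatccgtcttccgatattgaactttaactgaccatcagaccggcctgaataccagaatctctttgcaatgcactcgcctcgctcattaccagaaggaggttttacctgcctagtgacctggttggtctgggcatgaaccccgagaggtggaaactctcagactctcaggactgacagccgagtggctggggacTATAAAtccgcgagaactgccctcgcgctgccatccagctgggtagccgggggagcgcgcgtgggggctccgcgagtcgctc
The TATA-like match began 29 bases before the start site in IL24 and 32 bases before it in IL20RA. In IL20 matches began at 44, 42, 40 and 32 bases before the start, and the first 3 of them overlap. TATANA was present in 4 of the 16 member windows, the fourth belonging to IL10, and in 19.03% of all 35116 windows.

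The other words searched, on both strands, were found in few member windows. The AP-1 word TGANTCA was present in windows of IL10, IL19 and IL22RA1 and in 7.71% of all windows. The IL10 and IL19 matches are the same site, read on opposite strands where these windows overlap. The STAT word TTCNNNGAA was present in windows of IL10RB and IL19 and in 7.66% of all windows. The C/EBP word TTGCNNAA was present in windows of IL10 and IL22RA1 and in 10.46% of all windows. The words associated with XBP-1 binding, TGACGTG (1.97% of all windows) and CACGTG (7.26%), were in none of the 16. A match is a run of letters and no match says only that these letters are not in these windows.

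Beyond the members, receptors and cytokines of the same class showed no called change. Of 13 listed class II cytokines and receptors 11 were tested and 0 were called in limma, with 2 higher and 3 lower at an adjusted p below 0.05 alone. Their median log2 fold change was -0.09. IL22, the other ligand of IL22RA1, was not well above background. Among 25 JAK-STAT transducers and inhibitors 0 were called, with 7 higher and 10 lower at an adjusted p below 0.05 alone and a median of -0.08. With the slide as a block SOCS2, another inhibitor of the pathway, was called higher (1.13). Across all genes, 18.9% were higher and 27.5% lower by that looser rule. JAK1, a kinase that serves these receptors, differed by 0.04 (SE 0.13) with overlapping arrays. TYK2 differed by -0.13 (SE 0.24), on a dim probe that read 10.4 to 23.2 in shCtrl and 14.7 to 20.8 in shXBP-1s. JAK2 differed by 0.34 (SE 0.05). JAK3 differed by -0.81 (SE 0.06) on its brightest probe and by 0.03 on its other probe. These kinases are named for their role, after their values had been seen.

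Genes known to respond to STAT3 were called about as often as all genes (5.26% against 5.18%). CCND1, which encodes cyclin D1, fell by 1.30 on the log2 scale (SE 0.08, adjusted p = 1.04e-05 in limma). Its signal was 3524, 3537 and 3543 in shCtrl and 2129, 1747 and 1397 in shXBP-1s. It was the single called gene of 19 tested. At an adjusted p below 0.05 alone, 4 were higher and 10 lower, where 18.9% and 27.5% of all genes were. By this looser rule the list was lower more often than all genes. Its median was -0.26, where that of all genes was -0.04.

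Keratinocyte genes that IL-20 family cytokines are known to raise included several that rose in shXBP-1s. Of 20 tested, 7 were called higher and 0 lower (35%, where 5.18% of all genes were called), and the median log2 fold change was 0.47. The list was chosen with earlier results of these data known, so nothing is read from this share. KRT6A, a keratin of activated epidermis, read 205, 178 and 196 in shCtrl and 4685, 4623 and 4284 in shXBP-1s. Its log2 rise was 4.28 (SE 0.09, adjusted p = 4.28e-07 in limma). Its groups did not overlap. KRT6A, KRT6B and KRT6C are close relatives in sequence, and whether their probes also catch each other was not tested.

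KRT6B rose by 1.80 (SE 0.07, adjusted p = 2.16e-06 in limma) and KRT17, another keratin of activated epidermis, by 1.53 (SE 0.05, adjusted p = 1.55e-06). PI3, the protease inhibitor elafin, rose by 1.37 (SE 0.08, adjusted p = 9.64e-06), from 60.4, 59.2 and 58.9 to 215, 193 and 154. CXCL8, a chemokine for neutrophils, rose by 1.25 (SE 0.07, adjusted p = 7.20e-06) from signals of 4326 to 4754 in shCtrl to 12769 to 13387 in shXBP-1s. The remaining called genes were S100A12 (1.31) and MMP1 (1.25), named here to complete the count. Under normexp 4 of the list were called, and PI3, S100A12 and MMP1 lost their calls. Not every gene of the list moved this way. At an adjusted p below 0.05 alone 14 were higher and 2 lower, where 18.9% and 27.5% of all genes were.

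Of the 7 squamous markers, 3 were called higher, where 2.3% of all genes were. KRT5 rose by 1.43 (adjusted p = 1.09e-06 in limma), KRT14 by 1.58 (adjusted p = 3.32e-06) and DSG3 by 1.17 (adjusted p = 1.32e-05). The others, TP63 (0.93), SFN (0.71), CDH1 (0.13) and EPCAM (0.01), were not called. The sums of all 7 are given above, and the part of these markers in the keratinocyte result was not tested. In bulk samples, more cells of a kind and more RNA per cell cannot be told apart. Of 13 keratinocyte differentiation genes that the cytokines are known to lower, 9 were tested. Among them 0 were called higher and 1 lower (11.1%, where 5.18% of all genes were called). This was CALML5, a calcium sensor of the upper epidermis, which fell by 1.24 (SE 0.11, adjusted p = 7.60e-05 in limma), and its call was lost under normexp. Without shCtrl 1 or without shXBP-1s 3, IVL was called higher (1.14 and 1.09), which made 2 calls. IVL was well above background on 1 shCtrl array and on all 3 shXBP-1s arrays, so it was tested only through the group in which it was higher. FLG2, LORICRIN, DSC1 and KRT2 were not well above background.

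**Figure D4:**
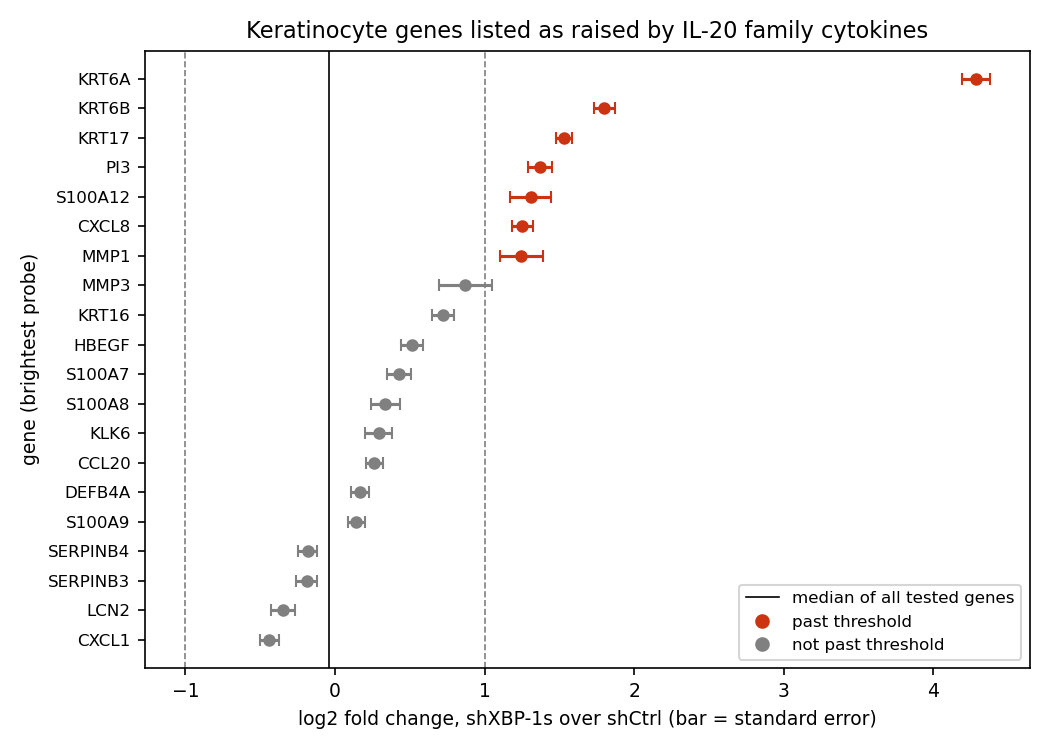
Log2 fold change, shXBP-1s minus shCtrl, with standard error (n = 3 per group), of the 20 tested keratinocyte genes that IL-20 family cytokines are known to raise. KRT6A (4.28) stands far above the others, and 7 of the set pass the call threshold upward.

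KRT6A was the gene whose pattern over the 6 arrays was most like that of IL24. Likeness was the root mean square difference of log2 levels over the 6 arrays, after subtraction of the shCtrl mean of each probe, among 16180 other genes whose brightest probe was well above background on all 6 arrays. KRT6A was at 0.07, followed by CD24 (0.29), SPRR2A (0.30), SPRR1B (0.50) and SERPINB2 (0.54). SPRR2A and SPRR1B encode proteins of the cornified envelope. KRT6C (0.70), IL1RL1 (0.73), MMP10 (0.79), IL1R2 (0.86) and ZBED2 (0.96) completed the first 10. IL1RL1 is the receptor of interleukin-33 and IL1R2 a decoy receptor of interleukin-1. IL20 came next, at rank 11 with 1.03. The second SPRR2A probe had a log2 fold change of 0.93 against 4.02 for the brighter one and was not called. These 6 arrays fall into 2 groups, so likeness here mostly means a rise of like size.

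**Figure D5:**
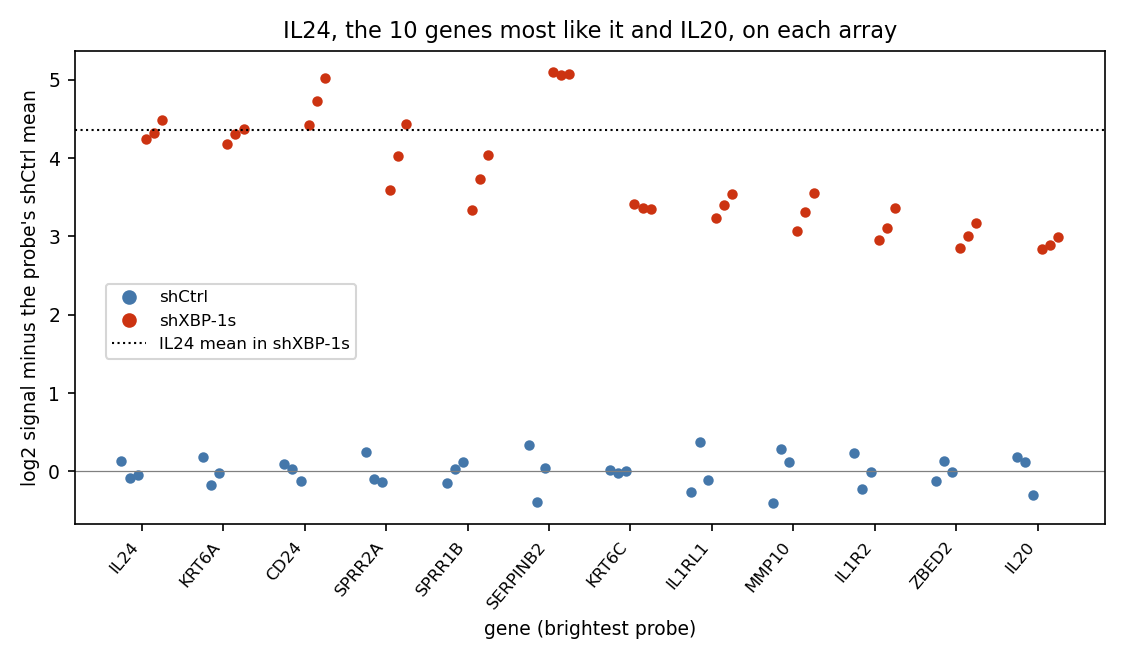
Log2 level on each of the 6 arrays, minus the shCtrl mean of the same probe, for IL24, the 10 genes most like it and IL20 (shCtrl blue, shXBP-1s red, 1 point per array). All shCtrl points lie around 0 and all shXBP-1s points lie well above them, with KRT6A at the height of IL24 and IL20 with the lowest shXBP-1s mean among those shown.

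Factors known to act on IL24 transcription or on the stability of its mRNA were called at 6.25%, near the 5.18% of all genes. JUN, a subunit of AP-1, read 431, 433 and 438 in shCtrl and 1409, 1348 and 1320.1 in shXBP-1s. It rose by 1.37 on the log2 scale (SE 0.07, adjusted p = 4.79e-06 in limma) and was the single called gene of 16 tested. At an adjusted p below 0.05 alone 6 were higher and 4 lower, where 18.9% and 27.5% of all genes were, and the median was 0.15. ZFP36, a protein that promotes decay of cytokine mRNAs, differed by -0.61 (SE 0.06, adjusted p = 7.68e-05), under the 2-fold minimum. It is named for its role after its value was seen.

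Over the 20 analyses by probe, the main one among them, the brighter IL24 probe differed by 2.92 to 4.42 on the log2 scale. The dimmer differed by 1.31 to 3.56. IL20 differed by 0.70 to 3.001, and IL20RA, which had a value in 19, by -2.19 to -0.45. The lowest values of IL24 and IL20, and the smallest of IL20RA, came under normexp, which was run on the median spot signal, so the signal column and the correction changed together. The IL10 and IL10RB differences changed sign in some alternatives, among them those that took the slide into account (0.02 and -0.02). Against shCtrl 1 alone, on the shared slide, IL24 differed by 4.23, IL20 by 2.73 and IL20RA by -2.16.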

How the data were processed

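Each sample was measured on 1 array. The authors deposited Agilent Feature Extraction (version 11.0.1.1) output with a background-subtracted intensity for each spot. They also deposited a log2 value table, for which the submitters' processing notes name RMA, used only as an alternative. Other deposited columns are flags (outlier, well above background, saturated) and median intensities, which served the filters and the normexp alternative. No column of another sample was present (0).

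The 75th percentile of an array's log2 intensities over non-control spots was subtracted, flagged spots were dropped and spots of a probe averaged. A probe was well above background where more than 50% of its spots were. Probes passing this on every array of at least 1 group were tested (27624 of 34127) in R 4.3.3 with limma 3.58.1 (lmFit, eBayes with trend, 2-sided, Benjamini-Hochberg over all tested probes). The fit was tested on simulated data. With 3 arrays a group, an exact permutation test cannot go below 0.1, so none was run. Symbols came from RefSeq accessions (25771 probes matched), and since the arrays were annotated on hg19, genes are given by order only, while promoter windows carry their own build. A gene was its brightest tested probe. Figures were drawn with matplotlib 3.10.9.

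The members and lists were chosen with earlier results of these data known. Named were all members, XBP1, all called genes of a list or the 5 of smallest p where more than 5 were called, and the 10 genes most like IL24. For the markers, those near background and the brightest were named. Other names are marked as chosen after their values were seen. Alternatives covered background correction, scaling, the deposited log2 values, dim-probe filters, the test, the threshold, slide, replicate block, the probe of a gene and leaving out each array. The number of arrays limits the precision.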

Additional observations from a re-analysis of the deposited data

How the results depend on the processing

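IL24 and the genes called in each list kept their direction in every analysis run. Under normexp with the 75th percentile, which shifted the median of all probes to -0.41, 473 probes were called instead of 1354, 1 member (IL24), and IL24 differed by 2.92. Under normexp with quantile normalization 357 probes were called and IL24 differed by 3.21. In both, 4 raised keratinocyte genes and 0 of the lowered keratinocyte and stress lists were called, and C1orf116, CALML5, HSPA5, MMP1, PI3 and S100A12 lost their call. The share of called probes that were higher also moved, from 632 of 1354 to 159 of 473 and to 187 of 357. With the adjusted p alone, 11516 probes and 7 members passed, and 18.9% of all genes were higher and 27.5% lower. In that analysis the counts were 5 for class II cytokines and receptors, 17 for JAK-STAT, 8 for the IL-6 family, 14 for STAT3-responsive, 16 and 3 for raised and lowered keratinocyte genes, 10 for stress and death, 10 for IL24 factors and 8 for the neighbours of the IL24 cluster. With slide as a block, or within the shared slide, IL24 differed by 4.23, and 1 JAK-STAT gene (SOCS2, 1.13) and 1 IL-6 family gene (IL31RA, 1.06) were called. The 2-sided t-test of the methods gave 1291 probes at its own threshold with 2-fold, and 1214 after Benjamini-Hochberg adjustment, with 3 members in each. Averaging the probes of a gene gave 3.94 for IL24. The causes were not tested.

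Leaving out each array in turn gave 1275 to 1750 probes, 3 to 4 members, 4.29 to 4.42 for IL24, 7 to 8 raised keratinocyte genes and 1 to 2 lowered ones (2 without shCtrl replicate 1 and without shXBP-1s replicate 3, where IVL was called higher). The fourth member was IL19 without shCtrl replicate 1 (-1.15). The IL19 and IL20RA probes give no value where all 6 arrays must be well above background. Same-numbered arrays did not deviate together (correlations -0.016, 0.117 and -0.116). A replicate block gave 1381 probes and 3 members, left IL24 at 4.35 and changed no other call of a list. Values near background, those of IL19, IL10 and IL20RA above all, are limited by the signal over it.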

Other observations

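Cells exposed to IL-24 are known to mount stress and death programmes, and 22 of 23 listed genes of these programmes were tested. HSPA5, the chaperone BiP of the endoplasmic reticulum, fell by 1.05 on the log2 scale (SE 0.04, adjusted p = 2.67e-06 in limma), from signals of 1566, 1767 and 1799 in shCtrl to 1135, 981 and 885 in shXBP-1s. It was the single called gene (4.55%, where 5.18% of all genes were called). Under normexp its difference was -0.94 and -0.95, which missed the 2-fold minimum. HSPA5 is also a known target of the unfolded protein response. At an adjusted p below 0.05 alone 6 were higher and 4 lower, where 18.9% and 27.5% of all genes were, and the median was 0.06. DDIT3, named for its role after its value was seen, differed by 0.04 (SE 0.07) with overlapping arrays. FASLG was not well above background.

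The IL-6 family, which also signals through STAT3, had 12 of 14 listed genes tested and 0 called in limma. At an adjusted p below 0.05 alone 5 were higher and 3 lower, where 18.9% and 27.5% of all genes were, and the median was 0.07. With the slide as a block IL31RA was called higher (1.06). By brightest probe OSMR, the oncostatin M receptor, was nearest to a call with a log2 difference of 0.75 (SE 0.06, adjusted p = 3.12e-05 in limma). It went from 361, 367 and 378 in shCtrl to 805, 798 and 655 in shXBP-1s. IL6ST differed by -0.31 on its brightest probe and by -0.84 to -0.0006 over its 7 probes. Both were named after their values were seen. IL11RA had no matched probe and CNTFR was not well above background.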
